A study of Mus musculus with 135 samples.

Results

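The members described here are 200 H3K4me3 peaks of mouse male germ cells that lie on every chromosome but 7 (and Y) and whose level across BXD strains followed a short interval of chromosome 7. They are 200 of 67114 germ cell peaks. They were chosen by a score: 8 peaks at 35 to 40 Mb of chromosome 7 whose founder means differed at least 4-fold were averaged, as z values signed so that a B6-like level counts up, over the strain values of 61 BXD strains (69 libraries). Of the 8783 peaks off chromosome 7 whose founders differed at least 2-fold, with at least 2 CPM (reads scaled to the same library total) in the higher founder, 6556 had a correlation with the score of the same sign as their B6 minus D2 difference, and the 200 with the largest absolute r are the members. The founder difference, the BXD values and r therefore chose the members and are given as a description, with no test.

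H3K4me3, trimethylation of lysine 4 of histone H3, marks active promoters, and in male germ cells at the start of meiosis it also marks sites where recombination begins. BXD strains are recombinant inbred mice: each is a fixed mosaic of the genomes of C57BL/6J (B6) and DBA/2J (D2), so a peak whose level follows the parental allele of a region on another chromosome is said to be controlled in trans. KRAB zinc finger proteins, many of them encoded in gene clusters, are a well known class of such trans factors. They bind sequences within transposable elements and recruit the cofactor TRIM28, which brings histone methylation that silences the element and lowers H3K4me3 over it.

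The germ cells were crudely isolated from males 14 days after birth, with 3 libraries of B6, 3 of D2 and 4 of the (B6xD2)F1 hybrid. Embryonic stem cells derived at E3.5 gave 5 libraries from 3 lines each of B6 and of D2, and 5 lines each of the strains BXD75 and BXD87. Hepatocytes and cardiomyocytes of females 8 weeks old gave 3 libraries for each of these 4 strains. B6, D2 and F1 germ cells shared antibody lot 2557645, the BXD germ cell libraries were split between that lot and 2746331, and all other cell types used 2746331. The labels do not say that the libraries of a strain came from separate animals, so p-values measure the spread between these libraries. Totals, in megareads, ran from 6.93 to 31.4 in founder and F1 germ cells, 1.87 to 18.6 in the BXD strains, 13.8 to 20.2 in stem cells and 2.62 to 25.2 in hepatocytes and cardiomyocytes. The germ cell medians were 8.27 in B6, 27.7 in D2 and 27.3 in F1, so B6 was the shallowest of these groups. All 8 promoters fixed as markers of meiotic germ cells carried a peak, with summed levels of 333 to 420 CPM in B6 and 427 to 444 CPM in D2, and so did 5 of 8 markers of testis somatic cells (all but Cyp17a1, Insl3 and Star), at 282 to 358 CPM in B6 and 246 to 290 CPM in D2. The part of these shifts in the founder differences was not tested, and in such bulk samples fewer cells of a type and less signal per cell cannot be told apart. Pou5f1 and Nanog were without a promoter peak in the stem cell table and Myh6, Tnnt2, Actc1 and Nppa without one in the cardiomyocyte table, while the other 6 of 8 stem cell and 4 of 8 cardiomyocyte markers had one.

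Members often held the same repeated DNA. The following stretches are of the mm10 (GRCm38) reference, which is the genome of B6, the founder with the lower level at all the members shown. The D2 sequence was not used here. All pairs shown were chosen after the data were seen. The first pair is a part of the best alignment between the peaks with the largest absolute r, chr2:78767521-78767620 on the plus strand and chr3:62639450-62639549 on the minus strand. That alignment ran over 431 positions with 81.9% identity, and the capitals mark its longest identical run of 30 bases.
chr2 member, rank 1: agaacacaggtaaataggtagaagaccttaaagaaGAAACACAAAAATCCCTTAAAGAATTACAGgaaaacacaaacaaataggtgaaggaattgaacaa
chr3 member, rank 2: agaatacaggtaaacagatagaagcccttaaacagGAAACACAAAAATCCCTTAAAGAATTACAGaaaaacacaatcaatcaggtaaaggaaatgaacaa

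The next pair is the central 300 bases of the members at ranks 3 and 4, chr11:23851201-23851500 and chr2:63599977-63600276, both on the plus strand. The capitals mark CTGATTGGAT, which contains the ATTGG letters of a CCAAT box read on the other strand. The central 300 bases of the members at ranks 1, 2, 5, 7, 8 and 10 did not hold this word and are not shown.
chr11 member, rank 3: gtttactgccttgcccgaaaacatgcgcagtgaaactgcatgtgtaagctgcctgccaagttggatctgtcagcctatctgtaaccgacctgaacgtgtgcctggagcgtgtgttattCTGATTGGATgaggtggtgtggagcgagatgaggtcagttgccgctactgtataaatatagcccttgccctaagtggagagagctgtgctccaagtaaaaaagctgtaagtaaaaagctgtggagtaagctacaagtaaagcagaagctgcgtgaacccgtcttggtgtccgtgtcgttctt
chr2 member, rank 4: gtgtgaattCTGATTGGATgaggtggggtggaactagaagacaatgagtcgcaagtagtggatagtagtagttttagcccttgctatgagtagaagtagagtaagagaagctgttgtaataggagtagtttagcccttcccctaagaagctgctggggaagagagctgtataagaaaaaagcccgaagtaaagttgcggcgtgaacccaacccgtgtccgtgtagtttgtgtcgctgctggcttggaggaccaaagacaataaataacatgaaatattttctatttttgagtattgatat

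The last pair lies within a single member, at rank 7 on chromosome 13, at chr13:83262911-83263010 and chr13:83263126-83263225 on the plus strand. Its capitals mark CAAGATGGCG, letters that resemble the recognition sequence of the transcription factor YY1.
chr13 member, rank 7, first copy: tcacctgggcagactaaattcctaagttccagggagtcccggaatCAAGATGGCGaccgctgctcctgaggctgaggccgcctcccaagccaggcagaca
chr13 member, rank 7, second copy: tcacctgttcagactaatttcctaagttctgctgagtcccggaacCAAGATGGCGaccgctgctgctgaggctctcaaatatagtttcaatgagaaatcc

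These words were picked by a script from the members themselves, as the 10-letter words (either strand) whose share of members most exceeded their share of other peaks with founders 2-fold apart, leaving out words that overlapped a chosen word by 6 letters. CAAGATGGCG stood within the central 1000 bases of 47 of 200 members (23.5%), of 5.16% of the 2073 other peaks off chromosome 7 that were higher in D2 and called on the second genome alone, and of 1.16% of all germ cell peaks. TCTGAACAGG stood in 14.0% of members, 1.69% of those other peaks and 0.398% of all peaks. CTGATTGGAT stood in 14.0%, 1.21% and 0.55%. None of the 10 members that were higher in B6 held any of the 3 words. A match is a description of the reference letters, not a binding site.

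Similarity between members went beyond these words. By blastn, 152 of 200 members (76.0%) aligned over at least 100 bases to at least 1 other member and 115 (57.5%) to at least 10 others, against 33.0% and 13.0% when all germ cell peaks were aligned to the members. Among the 2073 other peaks higher in D2 on the second genome alone these shares were 40.9% and 18%. The alignments between members had a median identity of 81.2% and a median length of 202 bases. Bases masked as repeats in the reference made up a median of 41.3% of a member (quartiles 27.3% and 57.6%), against 20.6% of the other peaks higher in D2 on the second genome alone and 16.6% of all peaks. The 10 members higher in B6 had a median of 14.0%. The repeat family of each copy was not determined, and how reads that fit several copies were placed was not stated in any source used here.

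**Figure D1:**
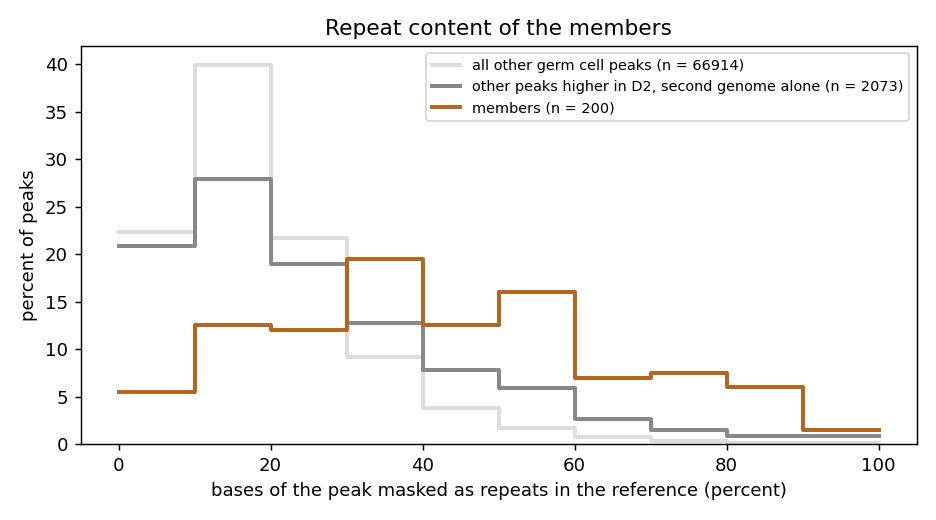
Percent of peaks (y axis) by percent of bases masked as repeats in the reference (x axis, bins of 10), for the 200 members, 2073 other peaks higher in D2 that were called on the second genome alone, and all other germ cell peaks. The members' median of 41.3% lies to the right of the other medians of 20.6% and 16.6%.

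The length of the interval on the second genome also differed. It was 20 to 80 bases longer on the second genome than on the reference in 51 members (25.5%), against 16.2% of the other peaks higher in D2 on the second genome alone and 5.64% of all peaks. It was shorter by the same amount in 12 members (6.0%), against 5.74% and 6.4%. In all, 152 members were called on the second genome alone, 37 on both genomes and 11 on the reference alone, and 6 came from peaks added from F1 libraries.

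Most members lay away from known promoters. By GENCODE M21, 132 of 200 (66.0%) were intergenic, 46 (23%) lay in introns, 9 in exons and 13 (6.5%) within 1 kb of a transcription start, against 36.5%, 22.0%, 12.6% and 29% of all germ cell peaks. The shares among the other peaks higher in D2 on the second genome alone were 48.6%, 26.1%, 14.7% and 10.6%. All 13 starts were those of gene models with Gm numbers, 1 of which, Gm6472, shares its place with the pseudogene Rpl7a-ps12. Introns with a member included those of Chst9 (a carbohydrate sulfotransferase) and Pcdh9 (a protocadherin). Chromosome 18 held 19 members, 6.05% of its 314 peaks with founders 2-fold apart, and chromosome 14 held 4, 0.798% of 501.

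The founders differed mostly in 1 direction. D2 was the higher founder at 190 of 200 members (95.0%), although it was higher at 38.4% of the 8783 peaks off chromosome 7 with founders 2-fold apart. Over these 190 the median level was 0.752 CPM in B6 (0.0406 to 5.07) and 4.39 CPM in D2 (2.02 to 19.9). All 200 members passed an adjusted p under 0.05 in the B6 minus D2 fit (edgeR), where 17.3% of all 67101 tested peaks did, with 9.23% of all peaks higher in B6 and 8.11% higher in D2, a count the rule fixes.

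The top member, chr2:78766305-78767775, lay 77.7 kb from the start of the nearest gene model, Gm17014. Its B6 libraries stood at 0.721, 0.365 and 0.121 CPM and its D2 libraries at 7.22, 7.43 and 9.28 CPM. Its F1 libraries stood at 0.524, 1.61, 1.75 and 1.34 CPM, below every D2 library and overlapping B6. In the BXD strains it ran from 0.56 CPM in BXD62 over a median of 3.57 to 10.4 CPM in BXD33, and its r with the score was -0.745. Of the 10 strains with the highest level 9 had a low, D2-like score, and all 10 strains with the lowest level had a high score.

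The second, chr3:62638363-62639725, lay 33.2 kb from Gpr149, which encodes an orphan G protein-coupled receptor. B6 held 0.289, 0.183 and 0.242 CPM, D2 4.45, 3.64 and 2.75 CPM, and F1 0.412, 0.161, 0.0715 and 0.573 CPM, so the F1 libraries overlapped B6 and lay below D2. At the member of rank 5, chr10:50813938-50815804, at the start of Gm48333 within Ascc3 (a helicase subunit of a DNA repair complex), B6 held 1.3, 0.974 and 1.57 CPM and D2 12.3, 10.8 and 17.9 CPM. Here the F1 libraries, at 5.43, 3.45, 3.11 and 3.38 CPM, lay between the parents without touching either. The member of rank 10, chr14:93216378-93216950 in an intron of Pcdh9, held 0.144, 0.122 and 0.242 CPM in B6, 3.89, 4.43 and 2.86 CPM in D2, and 0.15, 0.0803, 0.143 and 0.414 CPM in F1, which again overlapped B6. The other members among the first 10 were on chromosomes 11, 2, 18, 13, 12 and 18, each higher in every D2 than in every B6 library, with D2 means of 2.27 to 8.2 CPM and B6 means of 0.19 to 0.748 CPM. Levels in B6 were few reads: 1 to 16 per library at these 10 members.

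**Figure D2:**
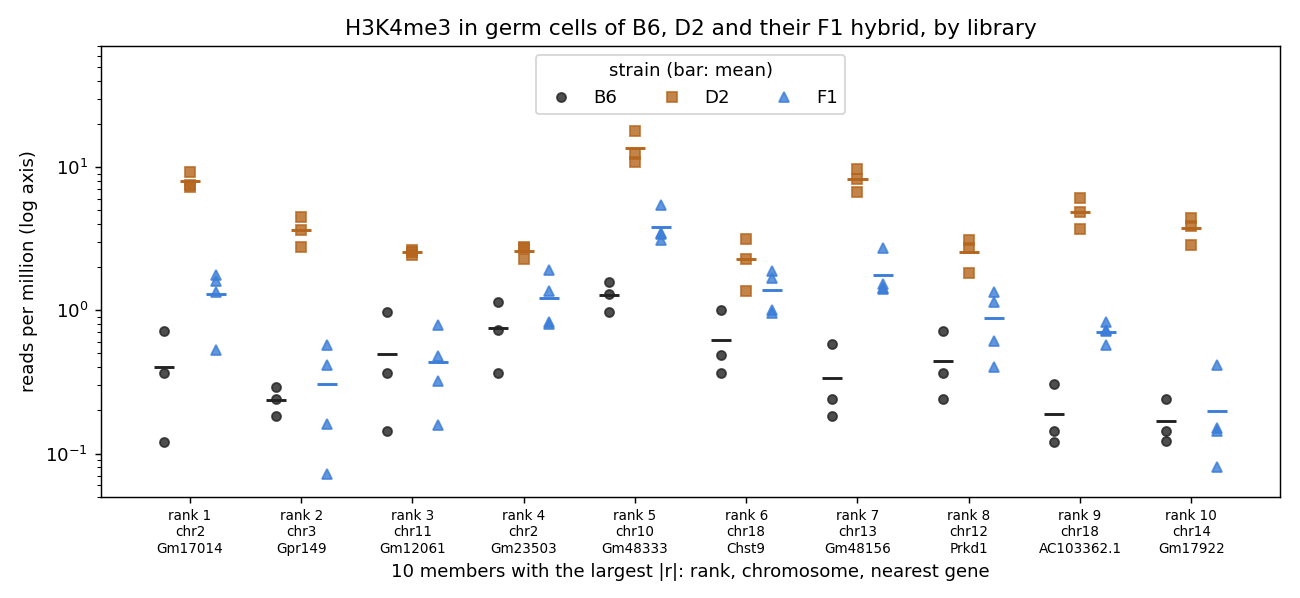
CPM (log axis) in each germ cell library of B6 (3), D2 (3) and F1 (4) at the 10 members with the largest absolute r, labelled by rank, chromosome and nearest gene, with a bar at each mean. D2 lies above B6 at all 10, where the rule required a 2-fold founder difference in either direction, and the F1 mean is nearer to the B6 mean than to the D2 mean, in linear CPM, at each of them.

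Among members at a transcription start, Gm49529 on chromosome 15 stood at 0.144, 0.183 and 0 CPM in B6, 2.84, 2.49 and 3.55 CPM in D2 and 0.225, 0.0803, 0.107 and 0.0637 CPM in F1. Gm47020 on chromosome 12 stood at 0.905 ± 0.57 CPM in B6 (SD, n = 3), 13.3 ± 0.98 in D2 (n = 3) and 2.87 ± 0.66 in F1 (n = 4). Gm21054 on chromosome 6, Gm48048 on chromosome 12, Rpl7a-ps12 on chromosome X, Gm48038 on chromosome 9 and Gm48172 on chromosome 10 had D2 means of 2.19, 5.95, 2.37, 5.5 and 13.1 CPM and B6 means of 0.0887, 2.43, 0.0809, 1.08 and 5.07 CPM.

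The 10 members higher in B6 ranked from 109 to 200. The first, chr16:10041310-10042847, 2.12 kb from the pseudogene Gm7572, stood at 9.38, 5.05 and 6.65 CPM in B6, 1.71, 1.84 and 1.95 CPM in D2 and 2.92, 3.85, 2.79 and 3.18 CPM in F1, with no overlap between the 3 groups. An intron of Myo5b (a myosin motor of vesicle transport) held the one with the highest level, 28.7 ± 11 CPM in B6 (SD, n = 3) and 7.28 ± 1.8 in D2 (n = 3). Of the 10, 4 lay on chromosome 18. Their number depended on the setting of the rule. With Spearman correlation all 200 peaks chosen were higher in D2, on antibody lot 2557645 alone 172 were, and under the other alternatives 188 to 195.

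The score came from 8 peaks between positions 35599420 and 36800121 of chromosome 7. By edgeR's fitted log2 difference, the largest founder differences among them were at chr7:36598721-36599838 (0.721, 0 and 0 CPM in B6 against 10.6, 8.76 and 8.14 in D2), chr7:36115457-36116700 (0.144, 0.0609 and 0 against 2.97, 3.39 and 2.52), chr7:36174391-36175599 (4.47, 3.78 and 2.9 against 0.198, 0.144 and 0.115), chr7:36215828-36216777 (6.35, 2.25 and 3.27 against 0.363, 0.0361 and 0.344) and chr7:36572683-36574625 in an exon of Gm29129 (1.3, 0.974 and 0.242 against 13.1, 10.3 and 14.6). B6 and D2 libraries did not overlap at any of these 5, by the rule's choice. None of the 8 lay within 1 kb of the start of any gene, zinc finger genes included. The 4 Zfp genes that start at 35 to 40 Mb all carried a promoter peak, and none passed the test for B6 minus D2: Zfp507 had 68.8 ± 6.4 CPM in B6 and 72.4 ± 6.9 in D2 (SD, n = 3 each), Zfp536 at 67.7 ± 6.3 and 56.1 ± 5.2, Zfp619 at 63.8 ± 4.2 and 64.5 ± 3.5, and Zfp939 at 37.8 ± 4.9 and 31.4 ± 3.6.

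Further out, 36 of 41 Zfp genes starting at 25 to 45 Mb of chromosome 7 had a promoter peak that could be tested. Of these, 4 (11.1%) passed, against 7.51% of all 19445 promoter peaks. Zfp936 had 10.6 ± 0.83 CPM in B6 and was at 0 in all 3 D2 libraries (edgeR adjusted p = 8.2e-11, with no fold given), and its peak was called on the reference genome alone. Zfp658 was higher in B6 (log2 difference 0.91 ± 0.15, SE, adjusted p = 0.00014), and Zfp82 (-0.72 ± 0.16, adjusted p = 0.0035) and Zfp74 (-0.48 ± 0.14, adjusted p = 0.026) were higher in D2, by edgeR's quasi-likelihood test. Zinc finger genes of such clusters have near-identical copies, between which the authors' counting could split reads. Of 25 genes fixed as KRAB silencing cofactors, among them Trim28, Setdb1 and Cbx5, 23 were measured and none passed (median log2 difference -0.052, against -0.068 over all promoter peaks).

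Across the BXD strains the score was split into 2 sets by cuts set by hand. It ran from -1.33 to -0.724 in the 26 strains of the low set and from 0.27 to 1.04 in the 34 of the high set. BXD75 lay between them at -0.011. BXD20 and BXD61 opened the high set at 0.27 and 0.304, so its edge was less distinct than that of the low set. The mean z of the 200 members, signed B6 up, had a median of -0.609 in the low set (-1.62 to 0.278) and 0.494 in the high set (-0.616 to 1.55), so the sets overlapped. The absolute r of single members ran from 0.454 to 0.745 with a median of 0.519, and 32 members had one above 0.6. Within each set the relation was much weaker, with a median r of 0.14 in the low set and 0.13 in the high set. By antibody lot, the median r in the direction of the founders was 0.555 over 29 strains of lot 2557645 and 0.512 over 33 strains of lot 2746331, and all 200 members kept their sign in both. The rule chose the members by r over these same strains, so the values by lot are no separate check. The last 3 members, chr15:66523578-66524546, chr3:48705797-48707095 and chr18:38161283-38162463, had r of -0.455, -0.455 and 0.454. The next 3 peaks, chr13:104555972-104557230, chr2:6464613-6465856 and chr18:21428576-21430522, had -0.454, -0.453 and -0.453.

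The z values of BXD75 changed sign within the interval. At the 5 score peaks up to position 36333243 they were B6-like (0.29 to 0.95), and at the 3 from position 36572683 on they were D2-like (-1.16 to -0.82). BXD61 showed the same split (0.83 to 2.04 and then -1.64 to -1.04). The members' mean z was -0.515 in BXD75 and 1.29 in BXD61, so these 2 strains lay on opposite sides.

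The members' mean followed other regions as well. Its r with the score of the 35 to 40 Mb bin was 0.732, and it was 0.606 for 30 to 35 Mb, 0.569 for 25 to 30 Mb, 0.515 for 40 to 45 Mb and 0.455 for 45 to 50 Mb. Of 143 bins of 5 Mb with at least 8 peaks, genome-wide, none exceeded the 35 to 40 Mb bin, which the rule favours. Of all 377 bins with at least 3 peaks, 5 did, each with 3 to 7 peaks: chromosome 9 at 20 to 25 Mb (0.812), chromosome 15 at 0 to 5 Mb (0.784), chromosome 3 at 95 to 100 Mb (0.78) and chromosome 7 at 50 to 55 Mb (0.764) and 125 to 130 Mb (0.755). On chromosome 7 itself, which the rule leaves out, 9 of 403 peaks with founders 2-fold apart and over 10 Mb from the interval's centre tracked the members' mean more closely than any of the 8 score peaks did. They lay 13.8 to 91.3 Mb away, all were higher in D2, and the highest r was 0.896, against 0.59 to 0.709 for the score peaks. All these correlations are over the same 61 strains and libraries.

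**Figure D3:**
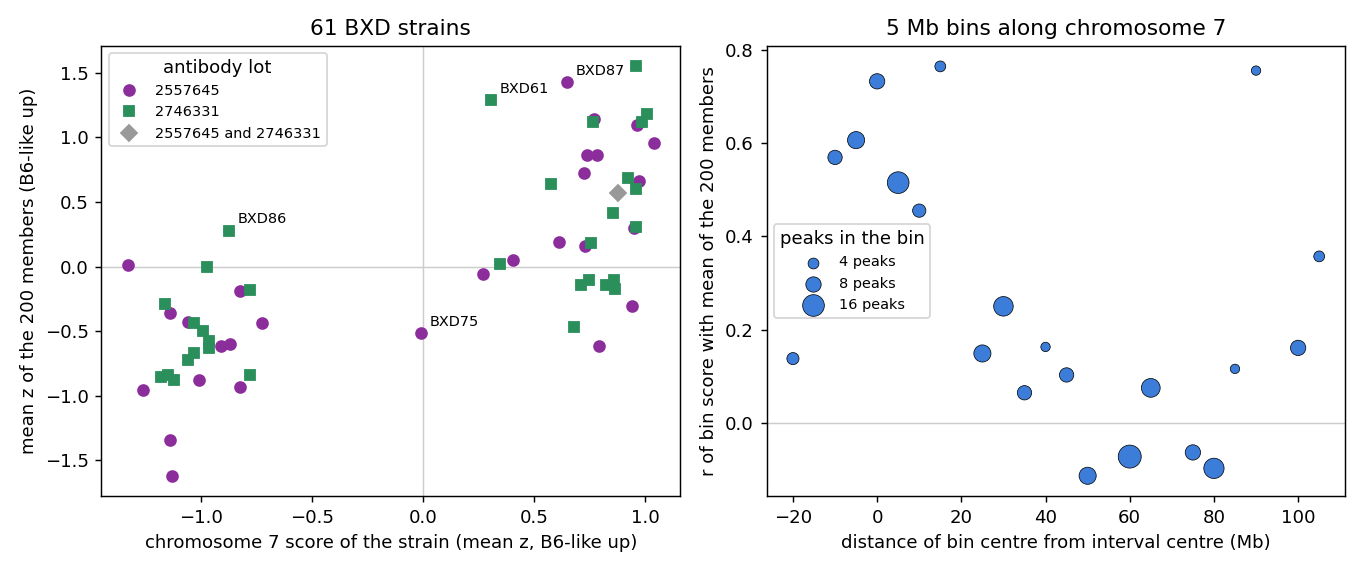
Left, chromosome 7 score (x axis) and mean z of the 200 members (y axis), both signed B6 up, for 61 BXD strains coloured by antibody lot. Right, r over strains between the members' mean and the score of each 5 Mb bin of chromosome 7 (y axis), by distance from the interval's centre in Mb (x axis), with point size showing the peaks in the bin. The left panel shows 2 sets of strains with BXD75 between them, and the right panel falls from 0.732 at the interval, with 2 small bins of 4 and 3 peaks (0.764 and 0.755) standing apart.

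Distal chromosome 12 was the bin of at least 8 peaks that came next (110 to 115 Mb, 15 peaks, r = 0.653), a bin chosen after its value was seen. Its score had an r of 0.431 with the chromosome 7 score. Among the 34 strains with a high chromosome 7 score, the members' mean z had a median of 0.687 in 23 strains with a positive chromosome 12 score and -0.143 in 11 with a negative one. Among the 26 strains with a low chromosome 7 score the medians were -0.445 in 6 and -0.643 in 20. For 57 of the 200 members the r with the chromosome 12 score was the larger, although the rule chose them by the r with chromosome 7. A member's own region was compared too: the score of peaks within 10 Mb of a member with founders 4-fold apart had a median r of 0.33 with it (199 members). It was larger than the r with chromosome 7 for 41 and smaller for 158, a count that leans to chromosome 7 because the rule chose members by that r. For other peaks off chromosome 7 higher in D2 the median local r was 0.53 (3180 peaks).

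The F1 hybrid carries 1 copy of each parental genome, so both alleles of the interval are present, and so are those of other regions. Its level therefore cannot be assigned to the interval alone. F1 libraries took no part in the rule, though the parents did. On a linear scale from the B6 mean (0) to the D2 mean (1), the F1 level of the 190 members higher in D2 had a median of 0.156 (quartiles 0.0162 and 0.345). The 4 F1 libraries gave medians of 0.166, 0.0952, 0.128 and 0.211. The 2073 other peaks higher in D2 on the second genome alone, chosen on the same founder difference, had a median of 0.389 (quartiles 0.203 and 0.508). The F1 lay below 0.25 at 117 of the 190 members (61.6%) and at 29.5% of the other peaks. At the 10 members higher in B6 it lay nearer D2, at a median of 0.701. The 8583 other peaks off chromosome 7 with founders 2-fold apart, in either direction, had a median of 0.579. Other peaks higher in B6 were not summarised alone, so the 0.701 has no matched background. Of the other peaks higher in D2 on the second genome alone, 73.6% lay below 0.5 as well, against 91.1% of the members higher in D2.

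**Figure D4:**
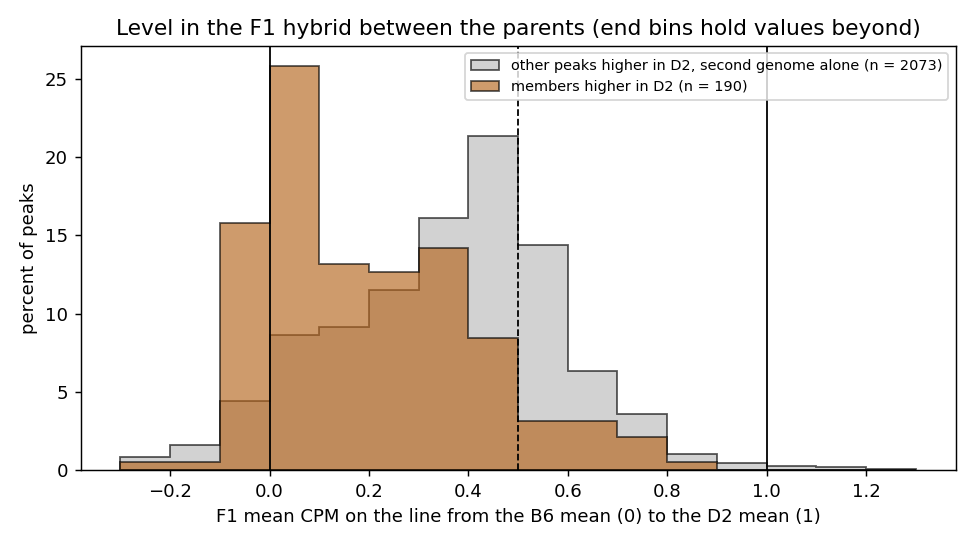
Percent of peaks (y axis) by the F1 mean level on the line from the B6 mean (0) to the D2 mean (1) (x axis), for the 190 members higher in D2 and 2073 other peaks higher in D2 that were called on the second genome alone. The members pile up near 0, with a median of 0.156, and the other peaks near the dashed middle line, with a median of 0.389.

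Against the mean of the parents on the log2 scale (edgeR, adjusted p under 0.05), 26 of 200 members were lower in F1 and 1 was higher, 27 in all, where 0.298% of all 67101 peaks were lower and 1.3% higher (1.59% in all). The members' median log2 difference was -0.296, that of all peaks 0.019. Of the 2073 other peaks higher in D2 on the second genome alone, 81 (3.91%) were lower and 282 higher, with a median of 0.2. The member with the smallest p was chr16:71314437-71315639, near 4930567J20Rik, at 0.112, 0, 0.0358 and 0.223 CPM in F1, all below the B6 libraries of 0.577, 0.304 and 0.363 CPM and the D2 libraries of 2.97, 3.79 and 5.5 CPM (log2 difference -3.45 ± 0.54, SE, adjusted p = 0.00074 by edgeR). The order of F1 and B6 there rests on few reads: 3, 0, 1 and 7 in F1 and 4, 5 and 3 in B6. In an intron of Lipc, the hepatic lipase gene, chr9:70902926-70903814 held 0.337, 0.241, 0.215 and 0.318 CPM in F1, within the 0.144, 0.183 and 0.484 CPM of B6, against 10.9, 8.65 and 13.2 CPM in D2 (-2.55 ± 0.42, adjusted p = 0.0012 by edgeR). At chr18:10274129-10276487, F1 held 3.75, 2.97, 3.83 and 3.38 CPM, overlapping the 3.75, 2.44 and 3.51 CPM of B6, with D2 at 15.4, 13.5 and 16.2 CPM (-0.96 ± 0.16, adjusted p = 0.0017 by edgeR). At chr17:22875997-22878072 F1 also overlapped B6 (0.779 ± 0.29 CPM, SD, n = 4, and 0.731 ± 0.3, n = 3), with D2 at 7.98 ± 0.46 CPM (adjusted p = 0.0023 by edgeR).

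The 1 member higher in F1 than the parental mean, chr5:5503890-5505813 in an exon of Cldn12 (a tight junction claudin), stood at 4.83, 5.46, 5.22 and 7.48 CPM in F1, between B6 (1.59, 1.52 and 1.09) and D2 (9.07, 8.51 and 7.45), with F1 and D2 overlapping (0.74 ± 0.18, adjusted p = 0.042 by edgeR). It missed the threshold when any library but F1 replicate 1 was left out (edgeR adjusted p 0.057 to 0.28), with RLE factors (0.056), without a filter on low counts (0.052) and with a filter of 50 reads (0.093). DESeq2 kept it (0.031). The next members in this direction, at a chromosome 18 exon of AC132418.1, at the start of Gm5466 on chromosome 2 and near Gm44080 on chromosome 6, had log2 differences of 0.68, 0.43 and 0.47 and did not pass (adjusted p = 0.12, 0.21 and 0.47 by edgeR). The count of lower members depended on the test and scale: DESeq2 called 41, and limma on linear CPM 67. Over all peaks, in either direction, DESeq2 called 1.96% and limma 0.568%. Leaving out B6 library B64 brought the members called from 27 to 14, leaving out D2 replicate 1 to 15 and leaving out B6 library B63 to 16. Of all peaks these fits called 1.17%, 1.26% and 1.42%. The median F1 position was 0.017 in the 47 members that held CAAGATGGCG within the peak, all higher in D2, and 0.22 in the 153 that did not, of which 143 were higher in D2. This split was made after the values were seen, and the difference was not tested.

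In stem cells 57 of 200 members (28.5%) had a matching peak at 50% reciprocal overlap, against 35.4% of all germ cell peaks and 21.2% of the other peaks higher in D2 on the second genome alone. All 57 were higher in D2 in germ cells. Here B6 minus D2 (3 lines each, edgeR, adjusted p under 0.05) was lower at 13 and higher at 7, together 35.1%, against 30.6% of all 67192 stem cell peaks (15.8% lower and 14.8% higher). Of all 23730 germ cell peaks with a match 20.2% passed. Of the 1178 matched other peaks off chromosome 7 with founders 2-fold apart 52.5% did. The members' median log2 difference was -0.128 against -0.013 for all stem cell peaks, and 33 of the 57 members had the sign of the germ cell difference. Of the other germ cell peaks higher in D2 on the second genome alone that matched, 205 of 439 were lower in B6 and 31 were higher, with a median of -0.47. The difference between cell types was not tested.

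Of the 8 members with the smallest p in this contrast, 4 had the germ cell order. Their fitted log2 differences in germ cells, which the rule used, were -3.74 at the chromosome 10 member, -3.31 on chromosome 4, -5.51 on chromosome 18 and -1.19 on chromosome 13. At chr10:18558615-18560590, 5.37 kb from Gm48297, the B6 lines held 1.42 to 2.65 CPM and the D2 lines 23.1 to 41.1 CPM (log2 difference -3.97 ± 0.28, adjusted p = 8.4e-10 by edgeR). In germ cells B6 held 0.433, 0.731 and 1.57 CPM there, D2 13.5, 9.7 and 12.7 CPM, and F1 2.96, 2.41, 2.11 and 2.87 CPM. At chr4:101824938-101825691 the lines held 1.02 to 1.35 CPM in B6 and 4.86 to 5.8 CPM in D2 (-2.16 ± 0.2, adjusted p = 4.6e-08 by edgeR). At chr18:30686443-30687743 they held 2.35 to 3.92 and 6.6 to 7.11 CPM (adjusted p = 5.8e-05 by edgeR), and at chr13:4800152-4801243, in an intron of Gm5444, 1.41 to 1.8 and 2.63 to 4.1 CPM (adjusted p = 0.0011 by edgeR). None of these pairs of groups overlapped, which the choice by smallest p favours.

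The other 4 had the opposite order in stem cells. At chr18:73714421-73716092 the B6 lines held 2.59 to 3.63 CPM and the D2 lines 1.29 to 1.59 CPM (1.11 ± 0.21, adjusted p = 0.00038 by edgeR), while in germ cells B6 held 1.22 to 1.33 and D2 6.65 to 8.69 CPM. The same was seen at chr3:119983664-119984854 (0.99 ± 0.19, adjusted p = 0.00041), at chr9:49164810-49165797, 58.7 kb from the protease gene Tmprss5 (1.2 ± 0.27, adjusted p = 0.0016), and at chr15:84097082-84098563 in an intron of Sult4a1, a brain sulfotransferase (0.89 ± 0.2, adjusted p = 0.0021, all by edgeR). Their stem cell peaks were called on the reference genome alone, whereas the germ cell peaks were called on the second genome or on both.

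**Figure D5:**
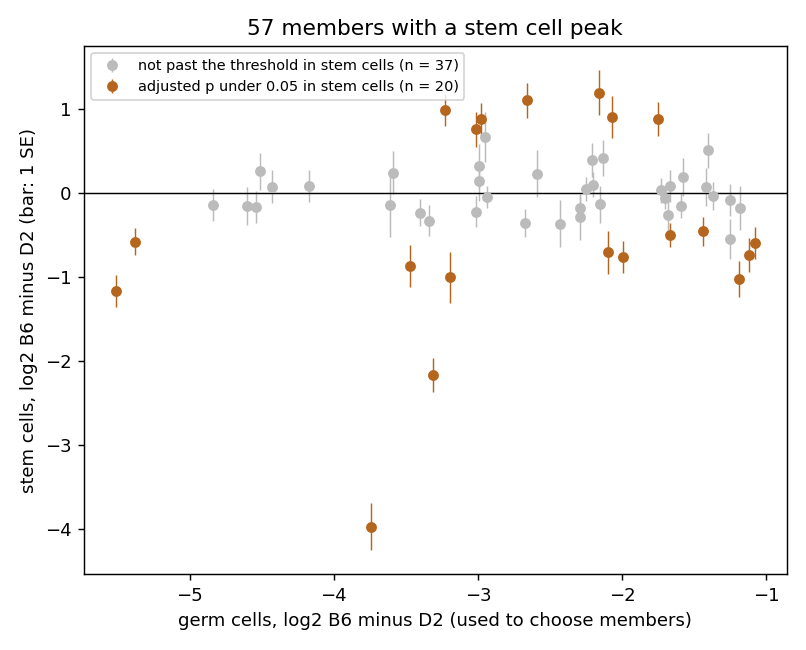
Log2 difference B6 minus D2 in germ cells (x axis, a value the rule used) and in stem cells (y axis, with 1 SE) at the 57 members with a stem cell peak, coloured by adjusted p under 0.05 in stem cells. All 57 lie below 0 in germ cells, and in stem cells 13 of the 20 that passed lie below 0 and 7 above.

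BXD75 and BXD87 differed in their score (-0.011 and 0.646) and in the members' mean z in germ cells (-0.515 and 1.43). In stem cells (5 lines each, edgeR) 9 of 57 members were higher in BXD75 and 2 lower, 19.3% in all, near the 21.8% of all peaks (9.94% higher and 11.8% lower). The median log2 difference was 0.079 against -0.002 for all peaks. Of all 23730 germ cell peaks with a match in stem cells, 2246 were higher in BXD75 and 1415 lower (15.4% in all), with a median of 0.059. Of the 439 matched other peaks higher in D2 on the second genome alone, 62 were higher and 79 lower (32.1%), with a median of -0.0041. At chr3:112042789-112044252, in an intron of Gm6602, the lines of BXD75 held 8.82 to 13.6 CPM and those of BXD87 3.14 to 5.74 CPM (1.1 ± 0.16, adjusted p = 2.4e-05 by edgeR), and germ cells 4.05 and 0.28 CPM (1 library each). At chr1:146821931-146822861, in an intron of Brinp3 (which encodes a neural-specific protein), they held 1.91 to 3.48 and 0.682 to 1.19 CPM (1.4 ± 0.22, adjusted p = 5.5e-05 by edgeR), and at chr13:4211629-4212718, 16 kb from the aldo-keto reductase gene Akr1c19, 5.46 to 7.28 and 2.84 to 4.76 CPM (0.77 ± 0.16, adjusted p = 0.0012 by edgeR). At chr4:101824938-101825691 the order was the other, with 1.73 to 2.85 CPM in BXD75 and 4.77 to 5.7 CPM in BXD87 (-1.18 ± 0.15, adjusted p = 5.5e-06 by edgeR). These 4 members were named for the smallest p among the 57. The 2 strains' lines did not overlap at any of them, which that choice favours.

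In hepatocytes 1 of 200 members had a matching peak, against 12.5% of all germ cell peaks and 2.6% of the other peaks higher in D2 on the second genome alone. In cardiomyocytes none had, against 16.1% and 1.45%. The hepatocyte peak, matched to chr11:110444623-110446034 in an intron of Map2k6 (a kinase upstream of p38), held 11.2, 12.3 and 13.2 CPM in B6 and 12.5, 13.7 and 16.1 CPM in D2, with overlap (log2 difference -0.2 ± 0.16, adjusted p = 0.55 by edgeR). Its germ cell levels were 1.44, 0.913 and 0.968 CPM in B6, 5.52 to 6.03 CPM in D2 and 2.73 to 3.04 CPM in F1.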

How the data were processed

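H3K4me3 ChIP-seq of MNase-digested chromatin gave the deposited read counts per peak (unit counts, not normalized) and the peak positions. The build mm10 and the tools MACS 1.4.2, BWA 0.5.10 and CASAVA 1.8 are named in the submitters' processing notes, with no role given. The authors' peak lists pair positions on the reference with those on a second genome, per the file headers. The members and lists were chosen with earlier results of these data known. CPM used column totals. Strain values were log2(CPM + 0.5) minus the antibody lot mean. Groups of germ cells, stem cells (lines summed), hepatocytes and cardiomyocytes were compared by edgeR's quasi-likelihood test with TMM, filterByExpr and Benjamini-Hochberg adjustment over all peaks of a table (edgeR 4.0.16, R 4.3.3), checked on simulated counts. Named were the 5 interval peaks with the largest founder difference, the 10 members with the largest absolute r, the 8 with the largest among promoter members, the 8, 4 and 4 with the smallest p in the stem cell founder, stem cell BXD and F1 contrasts (F1 in each direction), and the 3 on either side of the threshold. Genes came from GENCODE M21, overlaps from bedtools 2.31.1, alignments from blastn 2.17.0 at an E value of 1e-10, sequences from RefSeq GRCm38. Alternatives were DESeq2 (1.42.0), limma (3.58.1), other filters, factors, blocks and left-out libraries. Input libraries were not used here.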

Additional observations from a re-analysis of the deposited data

Results flagged for a closer look

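At chr10:50813938-50815804, at the start of Gm48333, F1 replicate 1 stood at 5.43 CPM, farther from the other 3 F1 libraries than Dixon's 95% limit allows, and at chr13:83262706-83264140 the same library stood at 2.7 CPM. In stem cells the line BXD87I stood at 3.14 CPM at chr3:112042789-112044252, below the other 4 lines of BXD87. These were 3 of 77 groups looked at, and chance flags about 1 in 20.

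At 6 of the 39 named members every stem cell line of B6 lay above every line of D2. In germ cells every library of D2 lay above every one of B6 at these members, an order the rule favours. Their stem cell log2 differences, B6 minus D2, were 0.52 at chr12:108738353-108739621 (the start of Gm48048), 1.11 at chr18:73714421-73716092, 0.99 at chr3:119983664-119984854, 1.2 at chr9:49164810-49165797, 0.89 at chr15:84097082-84098563 and 0.88 at chr3:112042789-112044252. Some of the 39 were named for a small p in stem cells, and not all had a stem cell match. The share of all matched peaks with such an opposite order was not counted. The difference between the cell types was not tested.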

How the results depend on the processing

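The rule kept 121 of its 200 members on the strains of antibody lot 2557645 alone and 133 when the score came from peaks with founders 2-fold apart. Under its other 8 alternatives it kept 142 to 196. The median absolute r of the members stayed between 0.509 and 0.555. In the F1 contrast the members called went from 27 to 42 with DESeq2, 67 with limma on linear CPM and 6 with a filter of 50 reads, which left 78 members to test, and to 14 to 22 when each library was left out. Over all peaks these settings called 1.96%, 0.568%, 1.42% and 1.17% to 1.8%, against 1.59%. In stem cells the members called went from 20 to 13 for B6 minus D2 under the filter of 50 reads (42 tested) and 14 to 21 without each line in turn, and from 11 to 9 to 13 for BXD75 minus BXD87. Of all stem cell peaks these settings called 28.9%, 21.9% to 35.1% and 17.4% to 22.0%. No hepatocyte alternative called a member, and cardiomyocytes gave no value, having no match. Depth limits the low founder, where single reads set the level.

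Whether the hepatocyte replicate numbers pair the libraries could not be settled with 3 libraries per strain. The r of same-numbered deviations was -0.019 to 0.1 for B6 and D2, and -0.32 to 0.64 for BXD75 and BXD87. For other numbers it was -0.14 to 0.1 and -0.69 to 0.58. With a replicate block 0 members were called, as without it.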
